A study of Mus musculus with 6 samples.

Results

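The HoxC cluster is 1 of the mouse Hox gene clusters and holds 9 protein-coding genes, Hoxc4, Hoxc5, Hoxc6, Hoxc8, Hoxc9, Hoxc10, Hoxc11, Hoxc12 and Hoxc13. All 9 were taken by name and their transcripts summed per gene, out of 26567 genes with a transcript in the data, and 8 of the 9 were among the 16989 genes that passed the filter on low counts. RNA was sequenced from sorted cap mesenchyme, the nephron progenitor tissue around the ureteric tips, of C57BL/6 kidneys at embryonic day 18.5. There were 3 homozygous knockout libraries, labelled Dnmt1 -/- (KO), and 3 heterozygous libraries, labelled Dnmt1 +/- (HET). Both groups carried Six2.Cre, a recombinase driven by the nephron progenitor gene Six2, with conditional alleles of Dnmt1, which encodes the enzyme that copies DNA methylation after replication. No library without deletion was analysed here, so HET libraries also lacked 1 functional allele in Cre-expressing cells. The labels do not say whether the libraries came from separate embryos, and p-values therefore measure only the spread between these samples.

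Hox genes encode homeodomain transcription factors that specify position along the body axis. Within a cluster they lie in a row on 1 strand, and their order matches the order of their expression along the axis, with low-numbered genes expressed further forward and high-numbered genes further back. Genes of the same number in different clusters are paralogs with overlapping functions. In the mouse kidney, the paralogs of group 11 are needed for induction of the metanephros and for Six2 expression, and those of group 10 for patterning of the stroma.

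In the GRCm38.p6 RefSeq annotation the 9 genes occupy chr15:102921131-103036856 on the plus strand, a span of 115726 bases. Hoxc13 lies at the 5′ end, from 102921131 to 102928814, followed by Hoxc12 from 102936826 to 102938609 and Hoxc11 from 102954526 to 102956701. Hoxc10 follows from 102966796 to 102971898, Hoxc9 from 102977032 to 102984444 and Hoxc8 from 102990539 to 102994275. Hoxc6 runs from 102998226 to 103011882, Hoxc5 from 103014008 to 103017429 and Hoxc4 from 103018097 to 103036856.

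Regulatory sequence of the cluster is shown for 2 elements, a promoter with its CpG sites and a small RNA encoded between members. The table of RefSeq promoters used here matched 1 of the 9 genes, Hoxc4, whose promoter is therefore the one shown. The RefSeq promoter of Hoxc4, 250 bases before to 50 bases after the start used there, lies at chr15:103034145-103034444 on the plus strand. This window lies inside the annotated gene and not at the gene start, 103018097, from which distances along the cluster were taken. CpG dinucleotides, the sites that Dnmt1 keeps methylated, are in capitals.
Hoxc4 promoter: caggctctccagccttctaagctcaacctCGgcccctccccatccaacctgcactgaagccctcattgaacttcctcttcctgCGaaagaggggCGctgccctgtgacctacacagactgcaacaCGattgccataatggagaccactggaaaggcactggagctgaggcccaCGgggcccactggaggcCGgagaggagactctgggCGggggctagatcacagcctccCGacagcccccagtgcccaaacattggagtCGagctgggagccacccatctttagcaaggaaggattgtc
It holds 9 CpG sites, which read the same on both strands, with an observed over expected CpG ratio of 0.333. A CpG occurs in 94.6% of the 32851 RefSeq promoters of that length, with a median of 7, and 45.8% of them hold at least as many as the Hoxc4 window. Methylation itself was not measured in these libraries.

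The microRNA gene Mir196a-2 lies between Hoxc10 and Hoxc9, and its mature product, from RefSeq at chr15:102973365-102973386 on the plus strand, is printed with its seed (bases 2 to 8) in capitals.
miR-196a-5p: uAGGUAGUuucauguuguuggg
In the mouse, miR-196 is known to cleave Hoxb8 messenger RNA and to act on other Hox transcripts. The DNA letters ACTACCT, complementary to the seed, were searched on the transcribed strand of annotated 3′ untranslated regions. For each gene, the transcript with the longest such region was used. They occurred in 1 of 9 HoxC genes, Hoxc8, and in 5.72% of 19915 genes with such a region, at a median length of 893 bases. The Hoxc8 matches, in capitals, began at bases 135, 892 and 1030 of an untranslated region of 1412 bases.
Hoxc8 base 135: acactcacaactctaACTACCTg
Hoxc8 base 892: ataaatctttaacatACTACCTa
Hoxc8 base 1030: ccagcgtattttatcACTACCTa
These matches are letters in the sequence, and the microRNA was not measured here.

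Estimated counts summed to between 51676519 and 61585484 in KO libraries and between 46741667 and 60108548 in HET libraries, and CPM here are these counts scaled by TMM library size. The detection limit of 3 counts equals 0.051 to 0.0662 CPM and allows for counting error alone. Dnmt1 had 20.9, 18.6 and 14.9 CPM in KO libraries and 40.04, 52.4 and 51.7 CPM in HET libraries, a log2 difference of -1.41 ± 0.15 (SE, adjusted p = 0.000264, edgeR). Six2 had 75.0, 105.3 and 95.8 CPM in KO libraries and 99.9, 113.9 and 123.8 CPM in HET libraries and did not pass the test (log2 -0.29 ± 0.13, adjusted p = 0.230, edgeR). Summed markers of cap mesenchyme were at 1308, 1478 and 1601 CPM in KO libraries and at 1852, 1916 and 1949 CPM in HET libraries.

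Most of the genes from Hoxc4 to Hoxc10 were lower in KO cap mesenchyme, whereas Hoxc8 and the posterior genes Hoxc11 and Hoxc13 did not pass the test. Of the 8 tested genes, 5 were lower at an adjusted p below 0.05 (Hoxc4, Hoxc5, Hoxc6, Hoxc9 and Hoxc10), with log2 differences between -0.78 and -0.51, none was higher, and 3 did not pass. Over all 16989 genes, 1.92% were lower and 4.92% higher by the same rule. All 3 KO libraries lay below all 3 HET libraries in 6 of the 8 genes, the 5 called ones and Hoxc8, against 14.2% of all genes. The median log2 difference of the 8 genes was -0.53, beside -0.0028 over all genes. No HoxC gene was higher by edgeR at an unadjusted p below 0.05 either, and DESeq2 and limma voom each called 0 higher and 5 lower. In these bulk libraries, fewer cells that express a gene and less RNA per cell cannot be told apart.

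**Figure D1:**
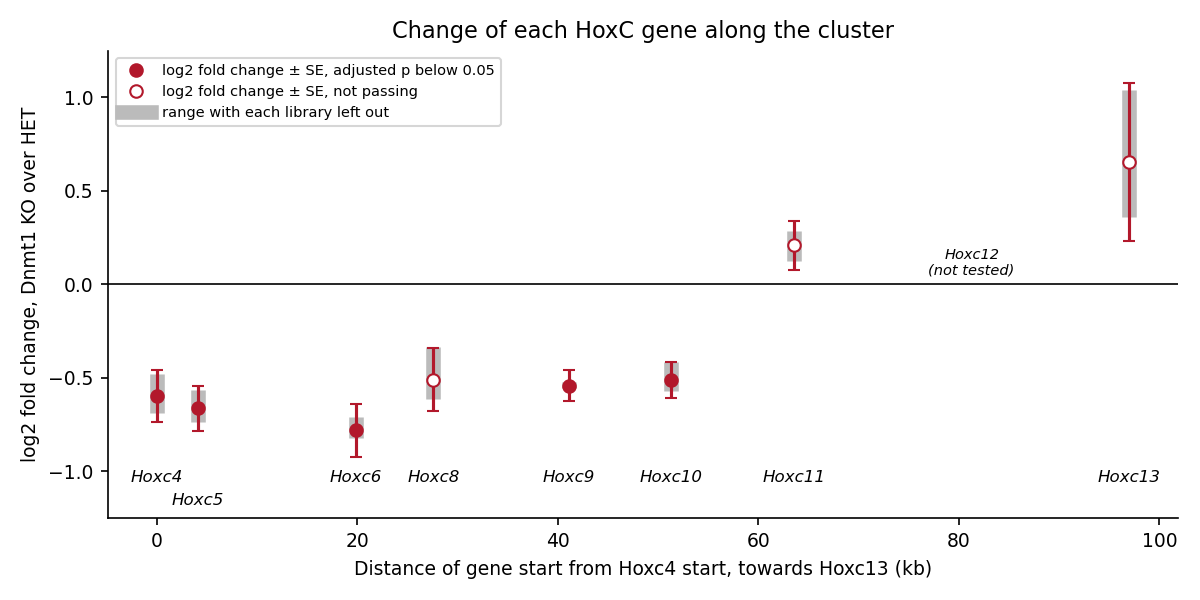
Log2 fold change (KO over HET, ± SE) of each HoxC gene against the distance of its start from the Hoxc4 start in kilobases. Filled points had an adjusted p below 0.05, open points did not pass, and grey bars span the values with each library left out; the 6 genes from Hoxc4 to Hoxc10 lie between -0.78 and -0.51, while Hoxc11 and Hoxc13 lie at 0.21 and 0.65, and Hoxc12 was not tested.

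At the 3′ end of the cluster, Hoxc4, an anterior Hox gene of group 4, had 10.9, 11.03 and 11.1 CPM in KO libraries and 19.3, 16.2 and 14.5 CPM in HET libraries. KO libraries were close together and all below the HET libraries, which spread more widely. Its log2 difference was -0.60 ± 0.14 (SE, adjusted p = 0.0273, edgeR). The call for Hoxc4 was lost on leaving out any 1 of 5 libraries, KO 1, KO 2, KO 3, HET 1 or HET 2, with an adjusted p of up to 0.109 by edgeR.

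Hoxc5, its neighbour, had 13.9, 15.003 and 13.9 CPM in KO libraries and 25.7, 21.9 and 20.3 CPM in HET libraries. The groups did not overlap, and the HET libraries again spread more than the KO libraries. The log2 difference was -0.66 ± 0.12 (SE, adjusted p = 0.00868, edgeR).

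Hoxc6, which marks motor neurons at forelimb level in the mouse, had 6.85, 7.98 and 7.60 CPM in KO libraries and 13.9, 12.6 and 12.1 CPM in HET libraries. Every KO library was below every HET library. With a log2 difference of -0.78 ± 0.14 (SE, adjusted p = 0.00805, edgeR), it had the most negative value among the 8 tested HoxC genes.

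Hoxc8, which patterns thoracic vertebrae and brachial motor neurons, had 10.97, 13.5 and 10.5 CPM in KO libraries and 20.4, 15.2 and 14.1 CPM in HET libraries. The groups did not overlap, but the highest KO and the lowest HET library were close. Its log2 difference of -0.51 ± 0.17 (SE, adjusted p = 0.110, edgeR) did not pass the threshold. Without HET 1 the difference was -0.33, with an adjusted p of 0.280 by edgeR. Scaling by library totals alone moved Hoxc8 past the threshold, with a log2 difference of -0.68 and an adjusted p of 0.0274 by edgeR.

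Hoxc9, which sets thoracic motor neuron identity in the mouse spinal cord, had 28.7, 28.5 and 29.2 CPM in KO libraries and 41.8, 42.8 and 41.3 CPM in HET libraries. Libraries of each group were within a narrow range, with a clear gap between groups. Its log2 difference was -0.54 ± 0.08 (SE, adjusted p = 0.0029, edgeR), with the smallest adjusted p of the tested HoxC genes.

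Hoxc10, a lumbar and hindlimb gene of group 10, had 265.9, 334.3 and 316.1 CPM in KO libraries and 428.6, 461.5 and 418.3 CPM in HET libraries. KO 1 was the lowest library, and the groups did not overlap. The log2 difference was -0.51 ± 0.10 (SE, adjusted p = 0.00998, edgeR). Without HET 2 it was -0.47 with an adjusted p of 0.0529 by edgeR, so the call was lost.

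Hoxc11, the HoxC gene of the kidney-inducing group 11, had 18.1, 18.2 and 15.4 CPM in KO libraries and 15.6, 13.1 and 16.0 CPM in HET libraries. The groups overlapped, since KO 3 lay below HET 1 and HET 3. Its log2 difference was 0.21 ± 0.13 (SE, adjusted p = 0.383, edgeR), and 0.12 without HET 2.

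Hoxc12 and Hoxc13, posterior genes of which Hoxc13 is required in the mouse for hair and nail formation, had the lowest levels of the cluster. Hoxc12 had 0, 4 and 4 estimated counts in KO libraries and 0, 0 and 2 in HET libraries, around the limit of 3 counts, and was not tested. Hoxc13 had 34, 45 and 68 estimated counts in KO libraries and 47, 27 and 22 in HET libraries. On the CPM scale these were 0.721, 0.868 and 1.34 in KO libraries and 0.914, 0.459 and 0.485 in HET libraries, so the groups overlapped. The log2 difference of Hoxc13 was 0.65 ± 0.42 (SE, adjusted p = 0.400, edgeR), the widest error among the tested members, with values between 0.36 without KO 3 and 1.04 without HET 1.

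**Figure D2:**
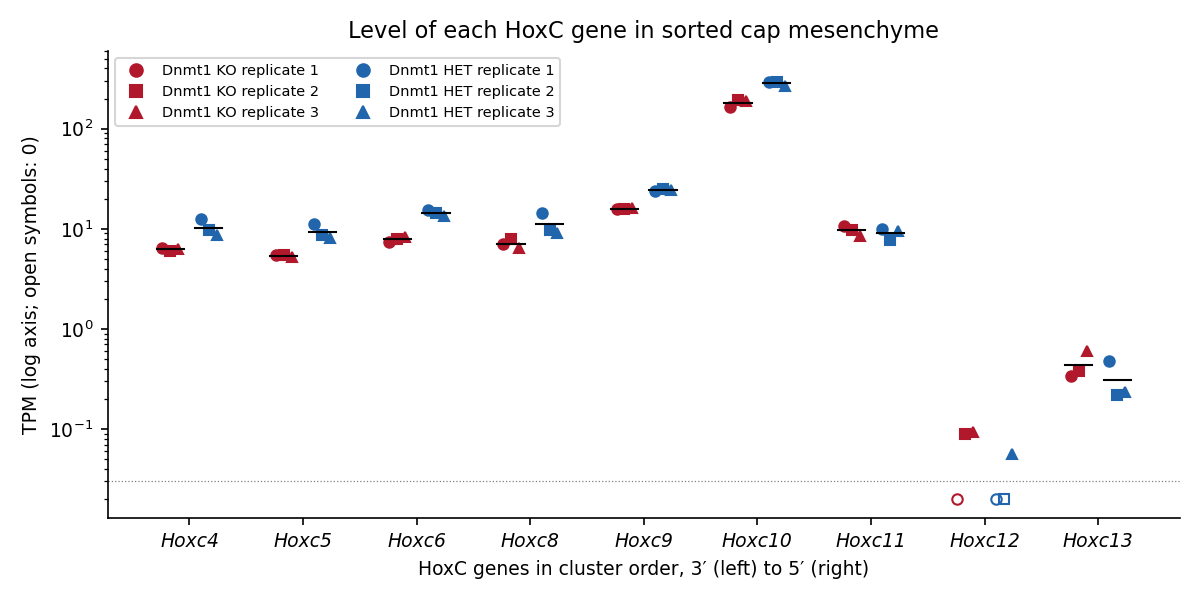
TPM of each HoxC gene in every library on a log axis, with KO libraries left of HET libraries for each gene. Hoxc10 lies far above the other genes, at 166 to 192 TPM in KO libraries and 264 to 294 TPM in HET libraries, and Hoxc12 and Hoxc13 lie lowest; bars are means and open symbols below the dotted line are values of 0.

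Levels between genes were compared in TPM, which accounts for transcript length. Hoxc10 averaged 182 ± 13.7 TPM in KO libraries and 283 ± 16.4 TPM in HET libraries (SD, n = 3 each). Its mean of 232 TPM over all 6 libraries was the highest among the 39 Hox genes, ahead of Hoxa10 at 166 TPM. Hoxc9, next in the cluster, averaged 15.9 ± 0.204 TPM in KO libraries and 24.5 ± 0.650 TPM in HET libraries. In both groups the range of Hoxc10 lay above that of Hoxc9, and the range of Hoxc9 above those of the other 7 genes.

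The order of mean TPM below Hoxc9 was not the same in both groups. In KO libraries Hoxc11 came next after Hoxc9, with 9.66 ± 1.03 TPM (SD, n = 3), and it did not overlap with Hoxc6, which had 7.82 ± 0.422 TPM. Below it, Hoxc6 and Hoxc8 overlapped, and Hoxc8 and Hoxc4 overlapped, at 7.09 ± 0.773 TPM for Hoxc8 and 6.23 ± 0.237 TPM for Hoxc4, followed by Hoxc5 at 5.38 ± 0.147 TPM. In HET libraries Hoxc6 came next after Hoxc9, with 14.4 ± 0.846 TPM, followed by Hoxc8 with 11.1 ± 2.85, Hoxc4 with 10.3 ± 2.05, Hoxc5 with 9.32 ± 1.61 and Hoxc11 with 9.11 ± 1.21 TPM. Each neighbouring pair in that HET order, from Hoxc6 down to Hoxc11, overlapped in range. Hoxc13 averaged 0.440 ± 0.141 TPM in KO libraries and 0.310 ± 0.145 TPM in HET libraries.

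HoxC TPM summed to 234 ± 13.3 in KO libraries and 362 ± 22.5 in HET libraries (SD, n = 3 each). Hoxc10 made up 77.5 ± 1.54% of that sum in KO libraries and 78.2 ± 1.16% in HET libraries. The share of Hoxc11 was 4.15 ± 0.636% in KO libraries and 2.52 ± 0.362% in HET libraries. HoxC genes held 35.7 ± 2.66% of the TPM of all Hox genes in KO libraries and 36.7 ± 1.13% in HET libraries, a difference smaller than the spread between KO libraries. The TPM of all Hox genes summed to 656 ± 12.1 in KO libraries and 987 ± 74.4 in HET libraries.

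Each tested gene was also set against the next tested gene in the cluster within the same library, in 7 pairs. Hoxc12 was left out, so Hoxc13 was set against Hoxc11. The log2 ratio of Hoxc11 over Hoxc10, in CPM, was -3.88, -4.20 and -4.36 in KO libraries and -4.78, -5.14 and -4.71 in HET libraries. All KO ratios lay above all HET ratios, with a difference of 0.73 (two-sided exact permutation test, p = 0.1, the smallest that 3 against 3 libraries allow, and 0.467 after Benjamini-Hochberg adjustment over 7 pairs). The other 6 pairs overlapped between groups, with differences between -0.12 for Hoxc6 over Hoxc5 and 0.47 for Hoxc13 over Hoxc11 and exact permutation p-values between 0.2 and 0.9. Hoxc10 over Hoxc9 differed by 0.02.

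**Figure D3:**
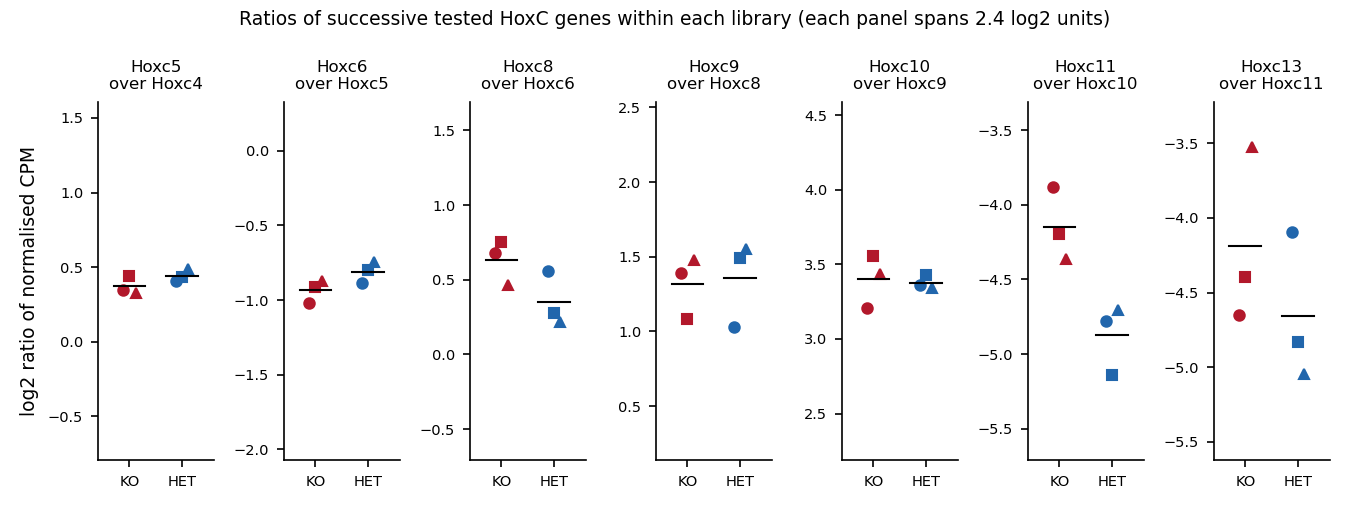
Log2 ratio of normalised CPM between successive tested HoxC genes in each library, with KO libraries left of HET libraries in each pair. The ratio of Hoxc11 over Hoxc10 is the pair whose groups do not overlap, at -4.36 to -3.88 in KO libraries and -5.14 to -4.71 in HET libraries.

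Of the genes, 3 have more than 1 transcript that GENCODE vM1 paired with them, giving 13 transcripts, of which 12 were tested. Transcripts left unpaired are not included, here or in the shares of gene counts below. Of these, 1 was lower, beside 0.199% of the 50137 transcripts tested, and 0 were higher by edgeR, beside 1.59% of all. At an unadjusted p below 0.05 by edgeR, 8 were lower and 0 higher. No share over all transcripts was computed at that threshold, so these counts have no background to be read against. The called transcript was Hoxc9-001, which held 95.3% of Hoxc9 counts in KO libraries and 96.1% in HET libraries and had a log2 difference of -0.49 ± 0.08 (SE, adjusted p = 0.0317, edgeR). Its call was lost on leaving out any 1 of the 6 libraries. For Hoxc4, transcript Hoxc4-002 held 82.9% of the counts in KO libraries and 76.5% in HET libraries. Hoxc4-001 had a log2 difference of -0.98 ± 0.21 and Hoxc4-002 of -0.42 ± 0.16, neither past the threshold, and the difference between them was not tested. Hoxc6-001 held 75.3% of Hoxc6 counts in KO libraries and 74.3% in HET libraries. At most 3.37% of the 31-base words of a HoxC transcript also occur in another protein-coding gene, with 0 for Hoxc10. Noncoding transcripts were not searched.

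The noncoding gene Gm20398 lies on the same strand within the cluster, reaching from Hoxc10 to Hoxc5, and was named after its values were seen. It had 33, 83 and 62 estimated counts in KO libraries and 65, 82 and 40 in HET libraries, which overlapped (log2 -0.01 ± 0.37, adjusted p = 0.992, edgeR). Whether reads were divided between it and the HoxC genes was not tested. The listed noncoding genes Hotair, Mir196a-2, Mir615 and Hoxc13as matched no gene with a paired transcript, so their levels were not analysed.

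Outside the cluster, 10 listed protein-coding neighbours were tested and edgeR called 1 of them, beside 6.85% of all genes in either direction, while DESeq2 called 1 higher and 1 lower. Gpr84, a receptor for fatty acids on immune cells, had 3.56, 2.89 and 3.34 CPM in KO libraries and 0.506, 1.11 and 1.77 CPM in HET libraries, a log2 difference of 1.54 ± 0.40 (SE, adjusted p = 0.0473, edgeR). Smug1, a DNA repair glycosylase, differed by -0.0048 on the log2 scale and Hnrnpa1, a splicing factor, by -0.01. Cbx5, which encodes the heterochromatin protein HP1 alpha, differed by -0.18, and none of these passed the test. Zfp385a differed by -0.52 ± 0.17, with all KO libraries below all HET libraries, and did not pass either (adjusted p = 0.101, edgeR). Of the 10 neighbours, 6 had a log2 difference below 0, with a median of -0.0098.

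Paralogs in the other clusters show how far the HoxC values stand beside genes of the same number. Of the 30 HoxA, HoxB and HoxD genes, 27 were tested, 8 were lower, 0 were higher and 19 did not pass, with a median log2 difference of -0.39, beside 1.92% of all genes lower and 4.92% higher. At an unadjusted p below 0.05 by edgeR, 2 were higher and 12 lower, while DESeq2 called 0 higher and 10 lower and limma voom 0 higher and 8 lower. All KO libraries lay below all HET libraries in 14 of the 27 and above in 4, beside 14.2% and 14.8% of all genes.

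In group 10, all 3 paralogs were lower. Hoxa10 had 174.9, 176.5 and 157.7 CPM in KO libraries and 276.3, 257.5 and 258.6 CPM in HET libraries, a log2 difference of -0.64 ± 0.08 (SE, adjusted p = 0.000645, edgeR). Hoxd10 differed by -0.96 ± 0.10 (adjusted p = 0.000287, edgeR), beside -0.51 for Hoxc10. In group 9, Hoxa9 was lower at -0.61 ± 0.09, near the -0.54 of Hoxc9, while Hoxd9 at -0.39 ± 0.11 and Hoxb9 at 0.10 ± 0.08 did not pass.

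In group 11, the paralogs gave different values. Hoxd11 had 72.5, 72.2 and 77.1 CPM in KO libraries and 139.3, 125.7 and 119.0 CPM in HET libraries, a log2 difference of -0.79 ± 0.08 (SE, adjusted p = 0.000233, edgeR). Hoxa11 at -0.31 ± 0.13 and Hoxc11 at 0.21 ± 0.13 did not pass, and the differences between paralogs were not tested. Of groups 12 and 13, Hoxd12 at 0.18 ± 0.10 and Hoxd13 at 1.61 ± 0.68 did not pass either, as Hoxc13 did not.

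In the anterior groups, Hoxa5 was lower at -0.98 ± 0.13, beside -0.66 for Hoxc5, and Hoxb5 at -0.22 ± 0.13 did not pass. Hoxd4 was lower at -0.84 ± 0.21, beside -0.60 for Hoxc4, while Hoxa4 at -0.32 ± 0.25 and Hoxb4 at -0.13 ± 0.10 did not pass. In group 6, Hoxa6 at -0.44 ± 0.19 and Hoxb6 at -0.43 ± 0.13 did not pass, whereas Hoxc6 was lower. In group 8, Hoxb8 at 0.65 ± 0.24 and Hoxd8 at -0.03 ± 0.16 did not pass, as with Hoxc8. Hoxa3 at -0.96 ± 0.13 and Hoxb3 at -0.59 ± 0.12 were also lower, in a group without a HoxC member.

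**Figure D4:**
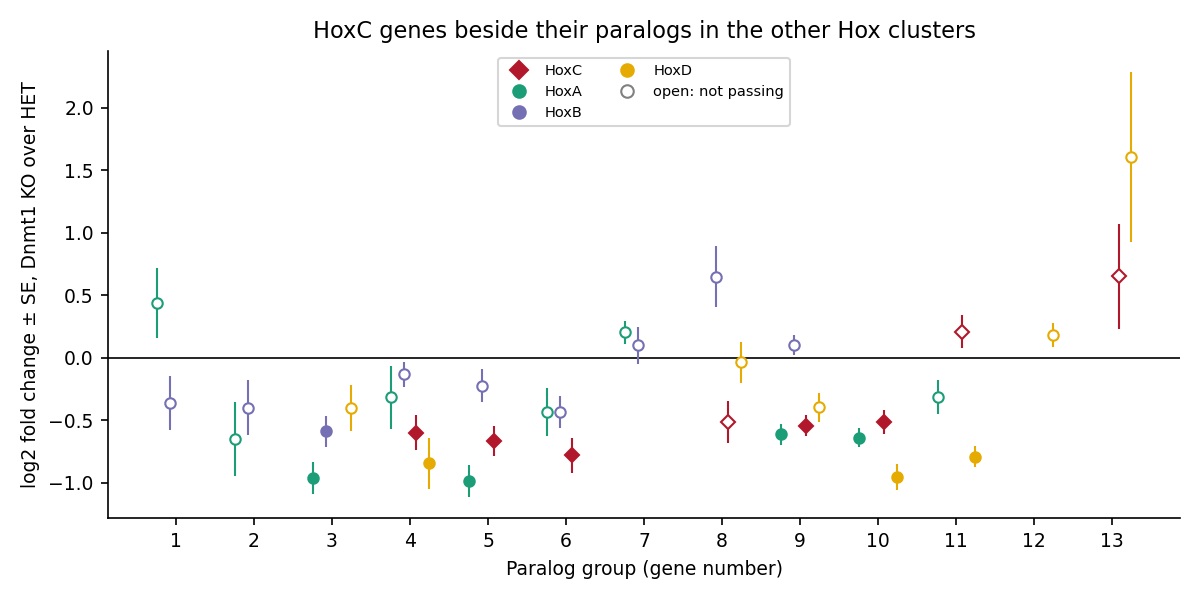
Log2 fold change (KO over HET, ± SE) of all tested Hox genes by paralog group, coloured by cluster, with filled symbols for an adjusted p below 0.05. In group 10 all 3 genes are lower, between -0.96 and -0.51, and in group 11 HoxC lies at 0.21 while HoxD lies at -0.79.

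Hox proteins bind DNA with TALE cofactors of the Pbx, Meis and Pknox families, and Polycomb and Trithorax complexes keep Hox genes silent or active. Of 9 TALE genes, 0 were called by edgeR, DESeq2 or limma voom, with 0 higher and 3 lower at an unadjusted p below 0.05 by edgeR. Meis2 had a log2 difference of -0.26 ± 0.09 and Meis1 of 0.36 ± 0.20, neither past the threshold. Of 38 Polycomb and Trithorax regulators, edgeR called 1 higher and 1 lower and 36 did not pass, a share near the 6.85% of all genes called in either direction, and DESeq2 called 2 higher and 2 lower. Rbbp7, a histone-binding subunit of Polycomb repressive complex 2, had 173.9, 178.3 and 178.7 CPM in KO libraries and 270.0, 236.5 and 215.8 CPM in HET libraries (log2 -0.44 ± 0.09, adjusted p = 0.0154, edgeR). Ash2l, a core subunit of the Trithorax-type H3K4 methyltransferases, had 45.8, 42.2 and 41.1 CPM in KO libraries and 34.5, 33.9 and 28.8 CPM in HET libraries (log2 0.41 ± 0.10, adjusted p = 0.0376, edgeR).

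Among 13551 protein-coding genes outside the Hox clusters, Smad9, a BMP signal transducer, came closest to the pattern of Hoxc10 over the 6 libraries, by Euclidean distance between mean-centred log2(CPM + 0.5) values. Its distance was 0.139, followed by 6430571L13Rik at 0.144 and the sorting nexin gene Snx15 at 0.152. Their log2 differences were -0.52, -0.65 and -0.49, and none of them passed the test.

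Summed markers of other cell types were in part higher in KO libraries. Of 8 endothelial markers edgeR called 1 higher, Emcn, beside 4.92% of all genes. DESeq2 called 4, and over all 16989 genes it called 1315 higher. All 8 had a log2 difference above 0, with a median of 2.28, and 3 passed an unadjusted p below 0.05. Their sum was 175.6, 66.8 and 30.9 CPM in KO libraries and 19.2, 23.3 and 20.7 CPM in HET libraries. Ureteric bud markers summed to between 54.8 and 223.5 CPM in KO libraries and 34.0 and 65.0 CPM in HET libraries, with 1 of 8 higher by edgeR, Ret, and 2 by DESeq2. Renal stroma markers summed to between 322.8 and 811.4 CPM in KO libraries and 248.1 and 310.3 CPM in HET libraries, with 1 of 8 higher by edgeR, Lum, and 1 by DESeq2, and 1 of the 8, Meis1, is also a listed TALE gene. Immune markers summed to between 12.2 and 17.2 CPM in KO libraries and 9.82 and 12.3 CPM in HET libraries, with 0 of 6 called by edgeR, DESeq2 or limma voom and 0 at an unadjusted p below 0.05. Erythroid markers summed to between 141.1 and 313.0 CPM in KO libraries and 186.1 and 413.8 CPM in HET libraries, with 0 of 3 tested called by the same tools and 1 lower at an unadjusted p below 0.05 by edgeR. No listed marker was at 0 in all libraries. KO 1 had the highest sum for endothelium, ureteric bud and stroma.

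Of 10 cap mesenchyme markers, edgeR called 2 lower, Cited1 and Wt1, and 0 higher, beside 1.92% and 4.92% of all genes, with a median log2 difference of -0.34. At an unadjusted p below 0.05 by edgeR, 5 were lower and 1 higher, DESeq2 called 4 lower and 1 higher, and limma voom 2 lower and 0 higher. Meox1, a homeobox gene of the list, had 39.4, 49.6 and 56.7 CPM in KO libraries and 27.8, 37.7 and 34.6 CPM in HET libraries, without overlap, and did not pass (log2 0.54 ± 0.15, adjusted p = 0.0704, edgeR). Without KO 1, the 5 called HoxC genes were at -0.58, -0.64, -0.71, -0.53 and -0.41 from Hoxc4, Hoxc5, Hoxc6 and Hoxc9 to Hoxc10, and Hoxc4 no longer passed (adjusted p = 0.0607, edgeR). Relative to Six2 in the same library, in a comparison added after the data were seen, KO lay below HET without overlap for 1 of 8 genes, Hoxc6, above for 1, Hoxc11, and the groups overlapped for 6. Summed HoxC CPM, mostly from Hoxc10, differed relative to Six2 by -0.21 on the log2 scale (two-sided exact permutation test, p = 0.2). Hoxc10 alone differed by -0.22, Hoxc6 by -0.48 and Hoxc11 by 0.51. Relative to the summed cap mesenchyme markers, KO lay below HET for Hoxc6, above for Hoxc11 and Hoxc13, and the groups overlapped for 5, with a difference of -0.12 for the HoxC sum (two-sided exact permutation test, p = 0.2). Shares of all genes without overlap were not computed for these ratios, so the counts have no background to be read against. The 14.2% lower and 14.8% higher on the CPM scale are for another measure and do not apply. Both denominators had lower means in KO libraries, with a log2 difference of -0.29 for Six2, which did not pass the test. The part of cell composition in the HoxC values was not tested further.

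**Figure D5:**
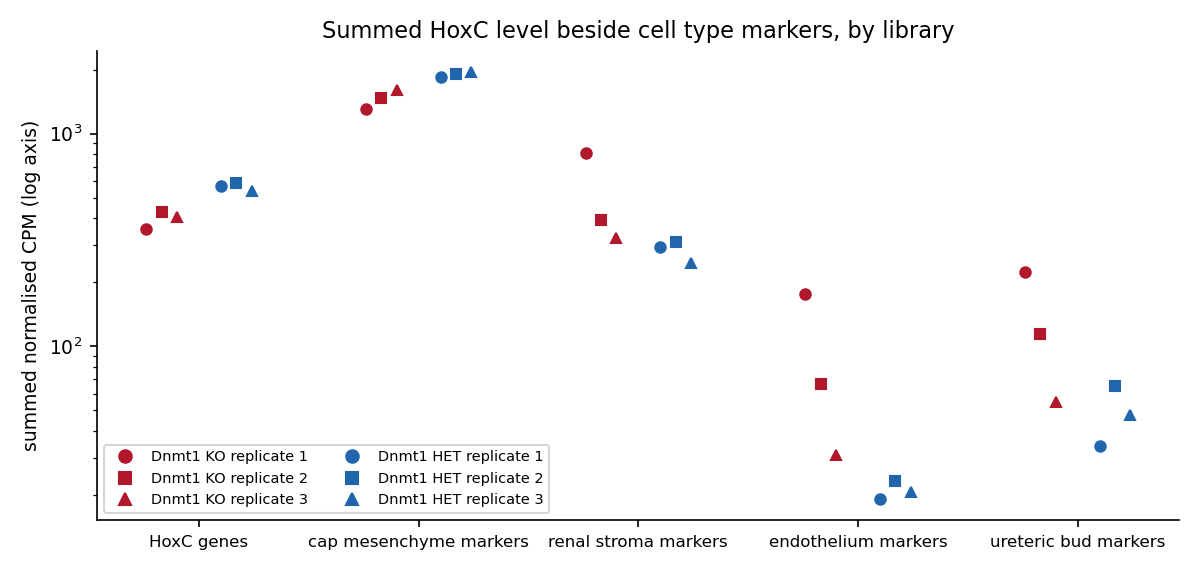
Summed normalised CPM of the HoxC genes and of each marker list in every library on a log axis, with KO libraries left of HET libraries. HoxC sums are 356 to 429 CPM in KO libraries and 537 to 584 CPM in HET libraries, cap mesenchyme sums are also lower in KO libraries, and endothelial sums are higher in each KO library than in any HET library.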

How the data were processed

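The authors deposited 1 kallisto table per library with 96626 transcripts, holding estimated counts, which can be fractional, TPM and the effective length in bases, per the file headers. The submitters' processing notes name kallisto and mm10. No source used here gives the kallisto version, the index annotation or the strand handling, so sense and antisense reads of a locus may be mixed. GENCODE vM1 paired 74519 transcripts with genes, holding 92.4% to 92.82% of the counts, and the others were left out of gene sums. Hoxa3 has a pair of gene IDs, and the one with more counts was used.

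Estimated counts were summed per gene, rounded and tested with edgeR 4.0.16 (R 4.3.3, limma 3.58.1): quasi-likelihood, TMM, filterByExpr, robust dispersions, no covariates, Benjamini-Hochberg adjustment over 16989 genes at 0.05. TPM was used to compare genes. No share over all genes or transcripts is given beside counts at an unadjusted p below 0.05, so these have no background to be read against. Over all 16989 genes, DESeq2 called 1315 higher and 624 lower, and limma voom 792 higher and 277 lower. Counts by these tools for members and lists stand beside those totals. Promoter and microRNA sequences and coordinates are from RefSeq GRCm38.p6. Untranslated regions are from GENCODE vM1, whose Hoxc8 transcript is longer than in the deposited tables. In addition, 3 genes were named by likeness to the HoxC gene with the highest TPM, and list members were named when they passed the test or shared a paralog group with a HoxC gene. Some other list members that did not pass were named beside them. The members and lists were chosen with earlier results of these data known. The test was checked on simulated counts. Alternatives were DESeq2 1.42.0, limma voom, limma on log2(TPM + 1) and log2(TPM + 0.1), other scalings and filters, length offsets, non-robust dispersions, the replicate number as a block and each library left out in turn.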

Additional observations from a re-analysis of the deposited data

How the results depend on the processing

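Across 18 alternatives (15 for Hoxc13, left out by 3 filters, and none for Hoxc12) no tested HoxC gene changed direction, and Hoxc5, Hoxc6 and Hoxc9 were called lower in all 18. Library totals without composition scaling moved the median log2 difference of all genes to -0.17 and that of the tested HoxC genes to -0.69. The count of HoxC genes called lower, 5, was between 3 and 5 with each library left out, with 3 without HET 2. The call for Hoxc4 was also lost by limma on log2(TPM + 1) without a filter. The 1 HoxC transcript called lower became 0 under the replicate block and with each library left out (0 to 0). Over all genes, 836 were higher, against 1315 by DESeq2, 442 by limma on log2(TPM + 1), 436 on log2(TPM + 0.1) and 543 without a filter, and between 526 and 916 with each library left out. In all, 327 were lower, against 1883 with library totals, 624 by DESeq2, 660 and 646 by limma on both TPM scales, and between 116 and 272 with each library left out. The causes were not tested. Same-numbered libraries did not deviate together (correlations -0.062, -0.026 and -0.047), so the numbers were not read as pairs, and the replicate block gave 5 HoxC genes lower, 707 genes higher and 265 lower. No library correlated best with its own number. Hoxc12 had too few counts to compare.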
